A study of Mus musculus with 16 samples.

Results

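The presynaptic vesicle release genes are the mouse genes for the proteins that store, dock, prime and fuse synaptic vesicles. They were chosen by symbol, as all synaptotagmins, syntaxins, Vamp proteins, complexins, syntaxin-binding proteins and Rim proteins with a number in their name, the Sv2 and Rab3 families, Snap25, the synapsins Syn1, Syn2 and Syn3, Syp, Bsn, Pclo and Unc13a. The rule found 59 genes among the 14498 genes of the matrix. Together they took 85015 of 21609944 unique molecular identifiers (UMIs, each standing for 1 captured RNA molecule), or 0.394%.

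The RNA came from single cells of the forebrain of wild-type embryos of the outbred mouse strain CD1 at embryonic day 15.5. All 16 samples carried the same labels, so the study holds 1 group, with no treatment, mutant or other stage. The counts were deposited as 1 matrix of 5777 cells that does not tie cells to samples, and it was treated as 1 sample. Comparisons were therefore made between classes of cells, without any test, and each interval covers counting error only.

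A synaptic vesicle fuses with the presynaptic membrane when the SNARE protein on the vesicle, Vamp2, zips together with a syntaxin such as Stx1a and with Snap25 on the membrane. Unc13a (Munc13) guides that assembly, complexins hold and promote it, and synaptotagmins such as Syt1 trigger fusion when calcium enters. Bassoon, piccolo and Rim proteins build the active zone where this happens, and synapsins, Sv2 proteins, Rab3 proteins and synaptophysin sit on the vesicles. Other syntaxins, Vamp proteins and syntaxin-binding proteins of the same families serve membrane traffic in all cells, so the list holds synaptic and general machinery side by side. At the age studied, cortical neurons are still being born and extending axons.

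Cells held a median of 3258 UMIs (range 1111 to 17398). After 4 blood-like cells had been set apart, 5773 cells fell into 24 clusters, drawn without the 59 genes, and 19 clusters were named from marker genes. A class name below stands for cells like that type. The main classes were 524 radial glia, the stem cells of the cortex, 436 intermediate progenitors, 949 migrating excitatory neurons, and 1294 excitatory neurons, of which 1005 were deep layer and 289 upper layer neurons. The ventral classes were 437 progenitors of the ganglionic eminence, 790 interneurons and 263 striatal neurons. Smaller classes were 75 Cajal-Retzius cells, 29 meningeal fibroblasts, 26 choroid plexus cells and 18 microglia. The fibroblast cluster also carried endothelial markers, at 2725 CPM (counts scaled to a common total per class) summed over the list. The remaining 5 clusters, with 932 cells, stayed unnamed. The matrix splits into 2 runs of consecutive cells, 3647 and 2122 cells, which the labels do not name. The first run ends at the last cell with a UMI of a Y-linked gene. The second starts at the first cell with a UMI of any of 11 genes listed out of order, and 4 cells lie between. By this rule the second run holds no Y-linked UMI. Whether the runs differ in the sex of the embryos or in how they were counted was not tested. The first run held 49 upper layer neurons and 405 ganglionic eminence progenitors, and the second run 240 and 31, so values are also given by run.

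The 30 genes of the synaptic release groups (SNAREs of the synapse, complexins and their partners, calcium sensors, active zone and vesicle proteins) were summed in each class. Their summed level was 591 CPM in radial glia, 985 in intermediate progenitors, 1737 in migrating neurons and 2958 in excitatory neurons. It was thus higher at each of the 4 stages than at the one before it, in both runs. Deep layer neurons stood highest at 3070 CPM (95% Poisson interval 3020 to 3121), and upper layer neurons reached 2582 CPM (2499 to 2668). Interneurons had 2427 CPM, striatal neurons 1755 CPM and ganglionic eminence progenitors 658 CPM. Interneurons differed by run, with 2154 CPM in the first run of cells and 3133 CPM in the other. The run also differed in which interneurons it held, since the cluster led by Sst had 70 cells in the first run and 133 in the other run, and the cluster led by Lhx8 had 88 and 0. The part of this in the difference between runs was not tested. Among non-neural cells, fibroblasts had 471 CPM, choroid plexus cells 597 CPM and microglia 468 CPM. The level of radial glia was thus within the range of these 3 classes. That range is not a zero level, since the sum also holds genes that are not limited to neurons. Stxbp6 (53.8 CPM) and Syt9 (15.5 CPM) were highest in radial glia among named classes of at least 50 cells. In choroid plexus cells, 204 CPM came from the complexins and their partners.

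**Figure D1:**
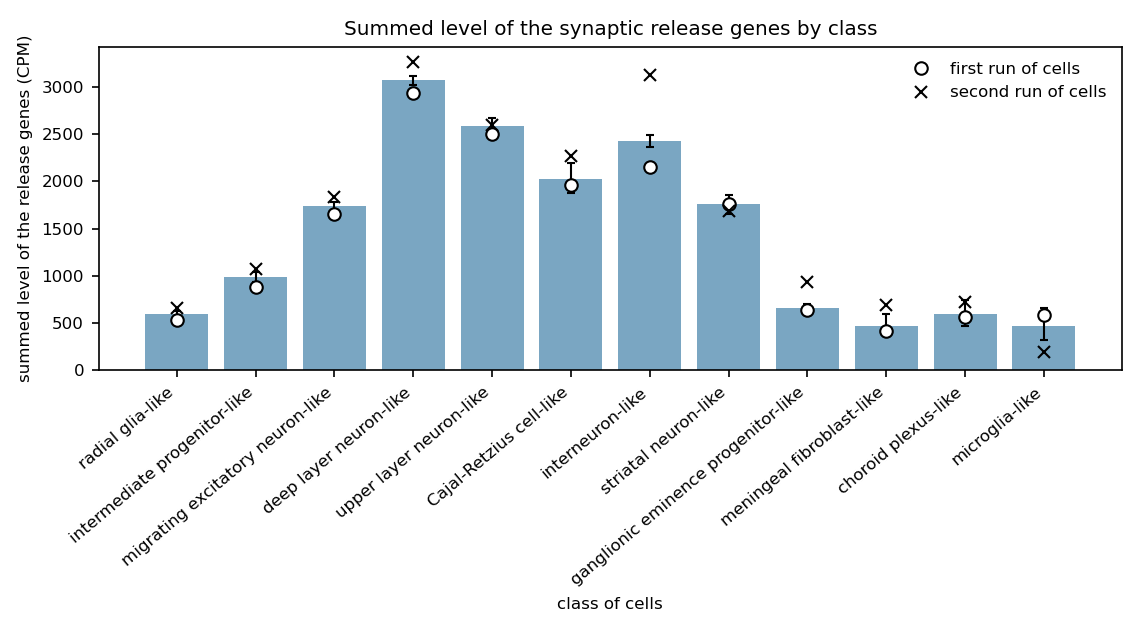
Summed level of the 30 synaptic release genes, in CPM, by class of cells. Bars are all cells of a class with 95% Poisson intervals, open circles the first and crosses the second run of cells. The level steps up from radial glia (591 CPM) through intermediate progenitors (985) and migrating neurons (1737) to deep layer neurons (3070), and the 3 non-neural classes on the right lie at 597 CPM or below.

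Counted per cell, with every cell thinned to 1000 UMIs, 87 of 1294 excitatory neurons (6.72%) and 305 of 524 radial glia (58.2%) had no UMI of the release set. The median excitatory neuron had UMIs of 2 release genes and the median radial glial cell of 0. A Snap25 UMI was seen in 34.3% of thinned excitatory neurons and 5.15% of thinned radial glia, and before thinning in 77.4% and 18.7%, with median depths of 4499 and 3030 UMIs. Microglia, which should lack the gene, had 1 of 18 thinned cells with a Snap25 UMI (5.56%, exact binomial 95% interval 0.141 to 27.3%, median depth 3880 UMIs), and choroid plexus cells had 3 of 26 (11.5%, 2.45 to 30.2%). With so few of these cells, the radial glial share could not be told apart from theirs.

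**Figure D2:**
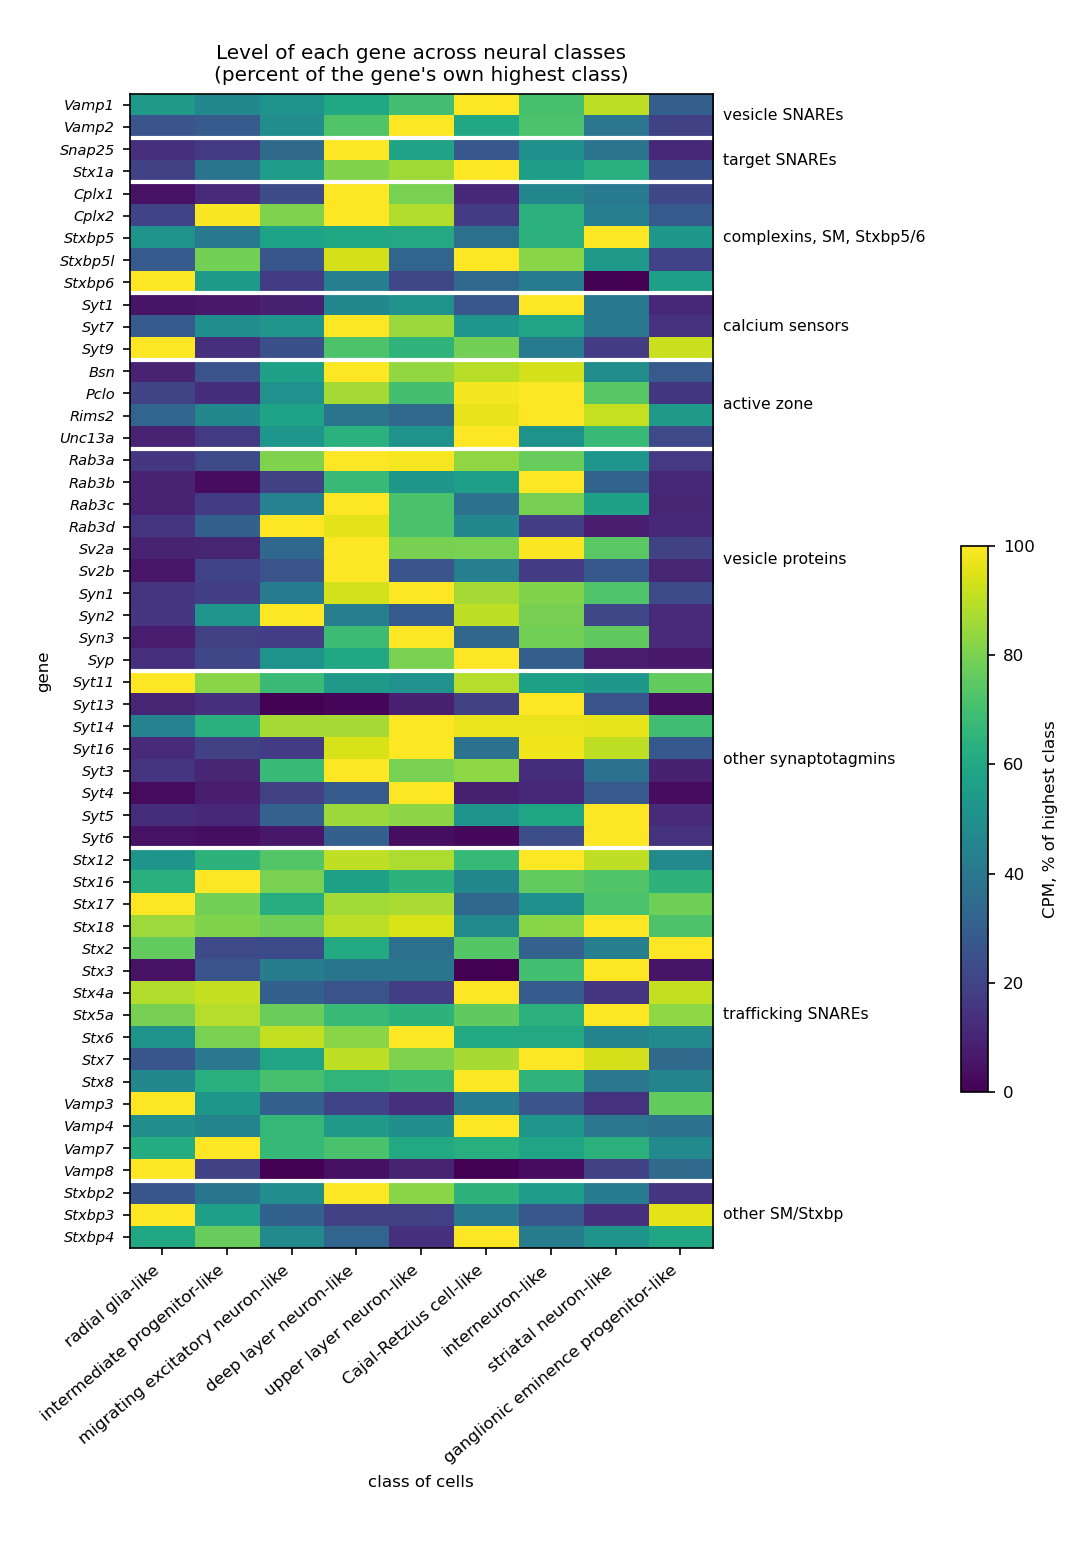
Level of 52 genes with at least 50 UMIs in 9 neural classes, each as a percent of the gene's own highest class, so that colours compare classes within a gene and not genes with each other. Most release genes are dark in radial glia and ganglionic eminence progenitors and bright in neurons, while Vamp3, Stxbp3 and Syt11 are brightest in radial glia.

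Excitatory neurons were first set against the radial glia from which their lineage starts. A gene was measured where both classes together held at least 50 UMIs, and called where its ratio reached 1.5-fold. Of 59 genes 49 were measured, and 32 were higher and 6 lower in excitatory neurons, where 24.1% of all 10166 measured genes were higher and 30.4% lower. The median log2 ratio was 1.76 over the measured members and -0.13 over all measured genes. The release groups gave 22 higher and 1 lower of 26 measured, with a median log2 ratio of 2.61. The other family members gave 10 higher and 5 lower of 23, with a median of 0.15. Of the 38 called genes, 35 had enough UMIs for a ratio in each run, and in all 35 the direction was the same in both.

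Among the SNAREs of the synapse, Snap25, the membrane SNARE that also serves as a common neuronal marker, had 3076 UMIs and 509 CPM in excitatory neurons and 137 UMIs and 75.9 CPM in radial glia. It was 6.71-fold higher (5.65 to 8.02). Vamp2, the vesicle SNARE, had 114 CPM in excitatory neurons and 38.2 CPM in radial glia, 2.99-fold higher. Stx1a, the syntaxin of the presynaptic membrane, had 37.9 and 8.87 CPM, 4.28-fold higher. The fusion core was therefore higher in excitatory neurons in each of its measured parts, with the smallest ratio in the vesicle SNARE.

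The largest ratio of the list belonged to Cplx1 (complexin 1), the clamp of the assembled SNAREs, which lies on chromosome 5 at 108518554 to 108550024 of GRCm38. It had 804 UMIs and 133 CPM in excitatory neurons, against 12 UMIs and 6.65 CPM in radial glia, a 20.02-fold difference (11.4 to 38.9). The ratio was 19.3 in the first run and 21.1 in the other run. Cplx2 had 219 CPM in excitatory neurons and 45.4 CPM in radial glia, 4.81-fold higher, with 7.65 in the first run and 2.92 in the other run. In the same role group Stxbp6 (amisyn), a SNARE-binding protein that lacks a membrane anchor, ran the other way: 20.5 CPM in excitatory neurons against 53.8 CPM in radial glia, 2.62-fold lower (1.99 to 3.44). The value rests on which clusters were named: the unnamed cluster led by Crym had 142 CPM of Stxbp6, the highest of any cluster, and with unnamed clusters in their best class (an alternative chosen after seeing the data) the log2 ratio was -0.51, against -1.39, short of the 1.5-fold limit.

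Syt1, the fast calcium sensor, had 747 UMIs and 124 CPM in excitatory neurons and 27 UMIs and 14.97 CPM in radial glia, 8.27-fold higher (5.63 to 12.6). Syt9 had 10.9 CPM in excitatory neurons and 15.5 CPM in radial glia, and was not called. Of the active zone, Bsn (bassoon) was 9.75-fold higher, at 103 against 10.5 CPM, Unc13a 6.09-fold and Pclo (piccolo) 4.06-fold. Rims2 was the exception among the measured active zone genes, with 26.2 CPM in excitatory neurons and 22.7 CPM in radial glia. Rims1 had 5 UMIs in all cells.

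All 10 genes for vesicle proteins were measured and all were at least 1.5-fold higher in excitatory neurons. Sv2b, a vesicle glycoprotein, led with 29.5 CPM against 2.22 CPM, 13.3-fold (5.10 to 49.3, from 178 and 4 UMIs). Its relative Sv2a was 9.61-fold higher, at 58.6 against 6.10 CPM. Rab3a, the main GTPase of synaptic vesicles, had 323 CPM in excitatory neurons and 51.0 CPM in radial glia, 6.34-fold higher. Syp (synaptophysin) had 23.8 and 4.99 CPM, 4.78-fold higher. Syn1 (synapsin 1), which tethers vesicles in the reserve pool, had 115 CPM in excitatory neurons and 18.3 CPM in radial glia, 6.26-fold higher (4.42 to 9.17).

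Of the 6 lower genes, 3 have roles in general exocytosis at the plasma membrane or endosomes. Vamp3 (cellubrevin), the vesicle SNARE of recycling endosomes, had 169 UMIs and 28.0 CPM in excitatory neurons and 273 UMIs and 151 CPM in radial glia, 5.41-fold lower (4.45 to 6.59). Stxbp3 (Munc18c), the SM protein that pairs with syntaxin 4, had 5.96 CPM in excitatory neurons and 30.5 CPM in radial glia, 5.11-fold lower (3.30 to 8.01). Stx4a, the mouse syntaxin 4 of that pair, had 14.9 and 54.3 CPM, 3.64-fold lower. Both members of that pair were therefore lower in excitatory neurons, where the synaptic SNAREs were higher. Stx4a was singled out after its values were seen, and its exons overlap those of a gene on the opposite strand, whose reads there cannot be told apart. Stxbp4 was 2.10-fold lower. The SNAREs of endosomes and the Golgi were mostly level: of 13 measured trafficking SNAREs, 8 were within 1.5-fold, and Stx7 of late endosomes was the highest at 3.31-fold, with 312 against 94.2 CPM.

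**Figure D3:**
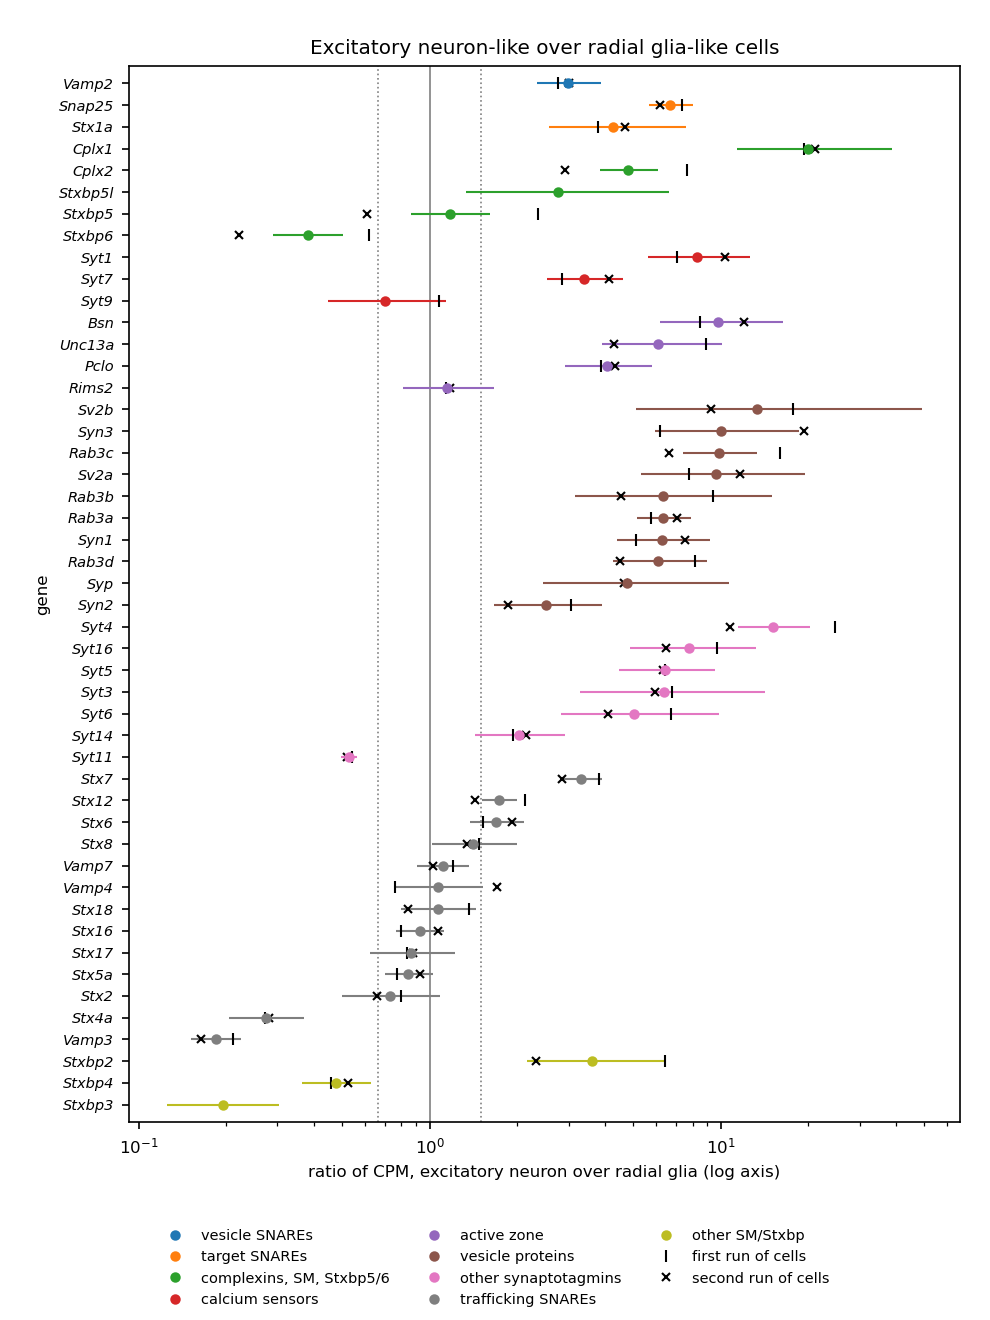
Ratio of CPM in excitatory neurons over radial glia on a log axis for 48 measured genes, coloured by role. Dots are all cells with 95% counting intervals, bars and crosses the 2 runs of cells, and dotted lines mark 1.5-fold. Cplx1 (20.02), Syt4 (15.1) and Sv2b (13.3) lie farthest right, and Vamp3 and Stxbp3 farthest left.

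Upstream sequence was in hand from RefSeq (GRCm38.p6) for 46 of the 59 genes. Syn1, which was higher in excitatory neurons, and Stxbp3, which was lower, are shown because both carry the cyclic AMP response element TGACGTCA in the 250 bases before their start, and they are the only ones of the 46 that do. This palindrome was in 1.55% of 32851 such windows. Syn1 was also the one member with TTCAGCACC, the left part of the RE1 site to which the repressor REST binds, searched on both strands and found in 0.301% of windows. The GC box GGGCGG, on either strand, was in 35 of the 46 members and in 32.7% of all windows. A gene was counted if any of its windows held the motif, so counts of members and shares of windows are not like for like. Capitals mark these motifs, and each sequence runs 5′ to 3′ on the gene's strand and stops at the first annotated exon base.
Syn1, minus strand, chrX:20921005-20921168: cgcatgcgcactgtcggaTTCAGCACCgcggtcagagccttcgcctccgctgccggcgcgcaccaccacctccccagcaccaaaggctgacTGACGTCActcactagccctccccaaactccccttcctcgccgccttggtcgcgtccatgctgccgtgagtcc
Stxbp3, minus strand, chr3:108840527-108840752: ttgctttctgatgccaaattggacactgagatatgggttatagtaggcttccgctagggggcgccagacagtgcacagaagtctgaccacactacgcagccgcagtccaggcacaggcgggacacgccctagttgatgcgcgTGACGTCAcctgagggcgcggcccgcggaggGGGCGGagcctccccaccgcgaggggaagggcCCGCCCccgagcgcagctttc
A match is a run of letters and was not shown to be a bound site.

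Of the synaptotagmins outside the group of fast sensors, 7 were measured. Of these, 6 were higher in excitatory neurons than in radial glia. Syt4, a synaptotagmin of dense core vesicles that binds calcium poorly, had 2626 UMIs and 435 CPM in excitatory neurons and 52 UMIs and 28.8 CPM in radial glia, 15.1-fold higher (11.5 to 20.3). Syt11, which also lacks calcium binding and acts in endosomal traffic, was the one that was lower, with 453 CPM in excitatory neurons and 856 CPM in radial glia, 1.89-fold (1.77 to 2.01). Syt11 was therefore well counted in progenitors as well as in neurons. In radial glia it had 1544 UMIs, and its level was also 650 CPM in ganglionic eminence progenitors, against 108 CPM in fibroblasts and 114 CPM in microglia.

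The cortical lineage offers 3 steps at which each gene can be placed. Of the 32 genes that were higher in excitatory neurons, 2 were at 50% or more of the excitatory level in radial glia, 7 in intermediate progenitors and 18 in migrating neurons. The median gene stood at 16.2%, 25.7% and 54.8% of its excitatory level in these 3 classes. Members differed in the stage at which their level stepped up.

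At the first step, from radial glia to intermediate progenitors, 34 genes were measured, of which 12 were higher and 4 lower, where 14% of all measured genes were higher and 19.5% lower. Cplx2 took the largest step of the list. It had 311 UMIs and 223 CPM in intermediate progenitors against 82 UMIs and 45.4 CPM in radial glia, 4.90-fold (3.83 to 6.33), with 4.87 and 4.68 in the 2 runs. Over all cells this was close to the 219 CPM of excitatory neurons, but the runs differed: Cplx2 had 173 CPM in intermediate progenitors and 272 CPM in excitatory neurons of the first run, and 265 and 165 CPM in those of the other run. Markers of migrating neurons, 12 genes, summed to 2767 CPM in intermediate progenitors and 569 CPM in radial glia, and their part in this step was not tested. After thinning, 14.4% of intermediate progenitors and 3.63% of radial glia had a Cplx2 UMI, at median depths of 3002 and 3030 UMIs, and 0 of 18 microglia, which allows up to 16.7%. That limit lies above the share in intermediate progenitors, so it says nothing of this step. Choroid plexus cells had 45.3 CPM of Cplx2, fibroblasts 31.8 CPM and microglia 14.2 CPM.

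Syn2 followed, with 48.0 CPM in intermediate progenitors and 14.4 CPM in radial glia, 3.33-fold higher (2.09 to 5.46). Syt4 was 2.61-fold and Bsn 2.59-fold higher. Snap25 had 96.0 CPM in intermediate progenitors and 75.9 in radial glia, Vamp2 41.6 and 38.2, and Syt1 17.2 and 14.97, all within 1.5-fold. Stx1a, with 25 UMIs in intermediate progenitors and 16 in radial glia, had too few to be measured. Pclo had 13.6 CPM in intermediate progenitors and 21.1 in radial glia, 1.55-fold lower with an interval of 0.870 to 2.84 that takes in no difference. Vamp3 was 1.89-fold lower, Stxbp6 1.83-fold and Stxbp3 1.77-fold.

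At the second step, 17 of 43 measured genes were higher in migrating neurons than in intermediate progenitors and 5 lower, where 12.2% and 15.6% of all measured genes were. Of 8 measured genes for vesicle proteins, 7 were higher, and of 4 measured active zone genes, 3 were. Rab3a had 831 UMIs and 261 CPM in migrating neurons and 102 UMIs and 73.1 CPM in intermediate progenitors, 3.57-fold higher (2.91 to 4.43). Sv2a was 3.17-fold and Syp 2.39-fold higher. The active zone genes Pclo (52.5 against 13.6 CPM, 3.85-fold), Unc13a (58.1 against 18.6 CPM, 3.12-fold) and Bsn (61.0 against 27.2 CPM, 2.24-fold) were higher as well. Snap25 was 2.02-fold higher. Syt3 had the largest ratio, 6.31-fold (2.58 to 20.03), from 72 and 5 UMIs. Syt1 had 24.2 CPM in migrating neurons and 17.2 CPM in intermediate progenitors and was not called.

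The last step separated excitatory neurons from migrating neurons. Of 49 measured genes 24 were higher and 5 lower, where 15.6% and 12.7% of all measured genes were. Syt1 had 747 UMIs and 124 CPM in excitatory neurons and 77 UMIs and 24.2 CPM in migrating neurons, 5.11-fold higher (4.04 to 6.55). Cplx1 had 133 and 32.7 CPM, 4.07-fold higher (3.32 to 5.05). Both took their largest step here, with ratios of 6.46 and 4.01 for Syt1 and 5.19 and 3.14 for Cplx1 in the 2 runs. Syn3 was 4.14-fold, Syt16 5.36-fold, Sv2a 2.87-fold, Snap25 2.62-fold and Syn1 2.28-fold higher. The excitatory class pools deep and upper layer neurons. Snap25 had 564 CPM in deep layer and 325 CPM in upper layer neurons, against 194 CPM in migrating neurons. The part of layer in this step was not tested. Cplx2, Rab3a, Unc13a and Syp were within 1.5-fold, having reached or nearly reached their excitatory level by the migrating stage.

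Syn2 peaked early. It had 218 UMIs and 36.1 CPM in excitatory neurons and 292 UMIs and 91.7 CPM in migrating neurons, 2.54-fold lower (2.13 to 3.04), so that among the 3 synapsins, Syn2 passed its highest level in migrating cells while Syn1 and Syn3 had theirs in upper layer neurons, within 1.5-fold of deep layer neurons. Rims2 was 1.55-fold lower, at 26.2 against 40.5 CPM, Vamp3 1.68-fold and Stxbp4 1.67-fold. The exons of Syn2 and Syn3 lie opposite those of Timp4 and Timp3, those of Syn1 opposite Araf, those of Rab3a opposite Mpv17l2, and those of Unc13a opposite Colgalt1. Exons of Pclo, Rab3b, Stx18, Sv2b, Syp, Syt4, Syt6, Syt7, Syt12 and Syt16 also lie opposite those of other genes. Whether counting used strand is not given in the sources used here, so reads of these pairs cannot be told apart. Exons of Bsn and Stx5a overlap Gm47303 and Mir6992 on the same strand, where strand would not tell reads apart.

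**Figure D4:**
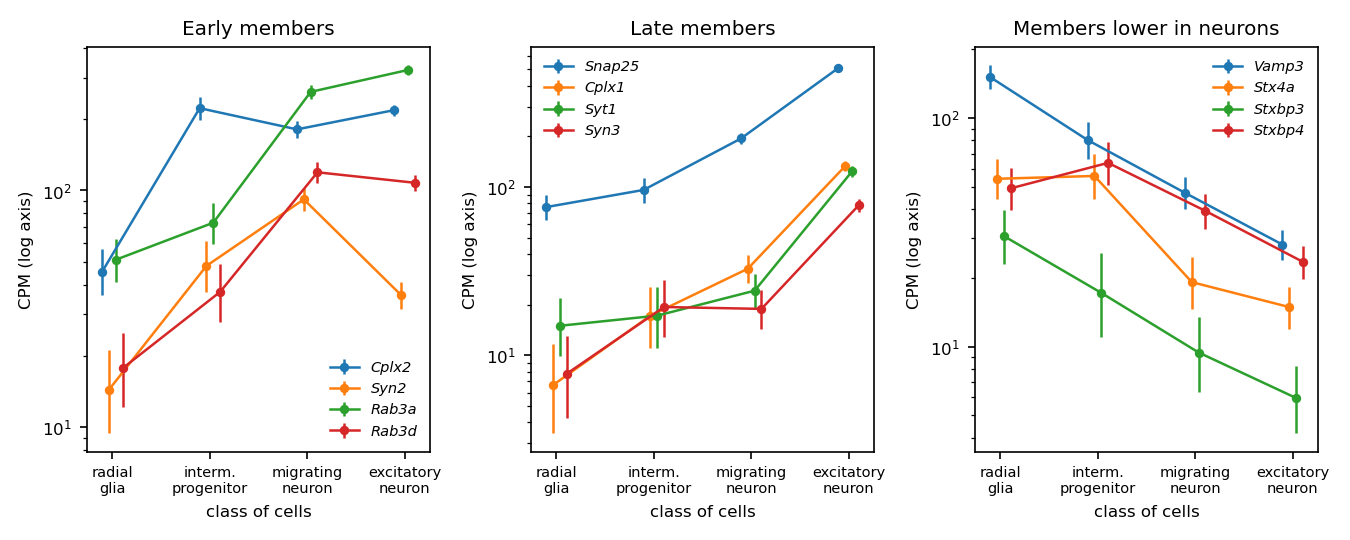
Level in CPM on a log axis, with 95% Poisson intervals, at 4 stages of the cortical lineage for 12 genes picked after their values were seen. Cplx2 is higher in intermediate progenitors (223 CPM) than in radial glia (45.4 CPM), and Syn2 is highest in migrating neurons. Snap25, Cplx1, Syt1 and Syn3 take their largest step at the last stage, where deep and upper layer neurons are pooled. Vamp3 and Stxbp3 are lower at each stage, and Stx4a and Stxbp4 only after intermediate progenitors.

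The ventral lineage gave a second pair of progenitors and neurons. Interneurons against ganglionic eminence progenitors had 26 higher and 5 lower of 43 measured genes, where 21.8% of all measured genes were higher and 25% lower. Of the 437 progenitors, 405 came from the first run and 31 from the second. In each run 17 of the called genes could be compared, all in the same direction. Syt1 led, with 533 UMIs and 259 CPM in interneurons and 47 UMIs and 29.2 CPM in progenitors, 8.86-fold higher (6.57 to 12.2). Rab3b was 8.79-fold higher, at 43.7 against 4.97 CPM, and Pclo 6.17-fold, at 103 against 16.8 CPM. Snap25 was 4.57-fold, Rab3a 4.65-fold, Vamp2 3.64-fold and Syn1 3.59-fold higher. Cplx1 and Cplx2 were 2.17-fold and 2.28-fold higher. Stxbp3 was 3.54-fold and Stx2 3.17-fold lower, and Vamp3 had 39.8 CPM in interneurons and 115 CPM in progenitors. Stx4a had 18.0 and 55.9 CPM. Vamp3, Stx4a and Stxbp3 were thus lower in neurons of both lineages.

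Interneurons and excitatory neurons differed in fewer genes. Of 49 measured, 4 were higher and 13 lower in interneurons, where 10.7% and 12.6% of all measured genes were. Several core genes were close: Vamp2 had 104 CPM in interneurons and 114 in excitatory neurons, Syn1 98.0 and 115, and Bsn 100 and 103. Syt1 had 533 UMIs and 259 CPM in interneurons and 747 UMIs and 124 CPM in excitatory neurons, 2.09-fold higher (1.87 to 2.34), with 1.80 and 2.75 in the 2 runs. All 4 clusters named interneuron lay above the excitatory level, from 163 CPM in the cluster led by Zic4 to 414 CPM in the cluster led by Sst. The name was weakest for the cluster led by Lhx8. Its mean log2 enrichment was 0.761 for the interneuron markers and 0.623 for the next list, so the class may mix cells of other types. Rims2 was 2.67-fold higher, at 69.9 against 26.2 CPM, and Syn2 2.02-fold, at 72.8 against 36.1 CPM. Both depended on the run, with 2.03 and 4.15 for Rims2 and 1.21 and 4.62 for Syn2.

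Among the lower genes, Syt3 had 9 UMIs and 4.37 CPM in interneurons and 192 UMIs and 31.8 CPM in excitatory neurons, 7.28-fold lower (3.75 to 16.2). Rab3d had 21.8 and 108 CPM, 4.94-fold lower (3.65 to 6.83). Cplx1 had 64.6 and 133 CPM, 2.06-fold lower, and Snap25 284 and 509 CPM, 1.79-fold lower, with 1.96 and 1.28 in the 2 runs. Syp was 2.14-fold and Syt7 1.66-fold lower. Cplx2 was 1.51-fold lower over all cells, but its value was 2.01-fold in the first run and 0.975-fold in the other run, so it did not keep its direction. Of 15 genes called here that could be compared in both runs, 14 kept theirs. Syt13, singled out after its values were seen, had 33 UMIs and 16.02 CPM in interneurons, against 0.497 CPM in excitatory neurons. It fell short of 50 UMIs over both classes.

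**Figure D5:**
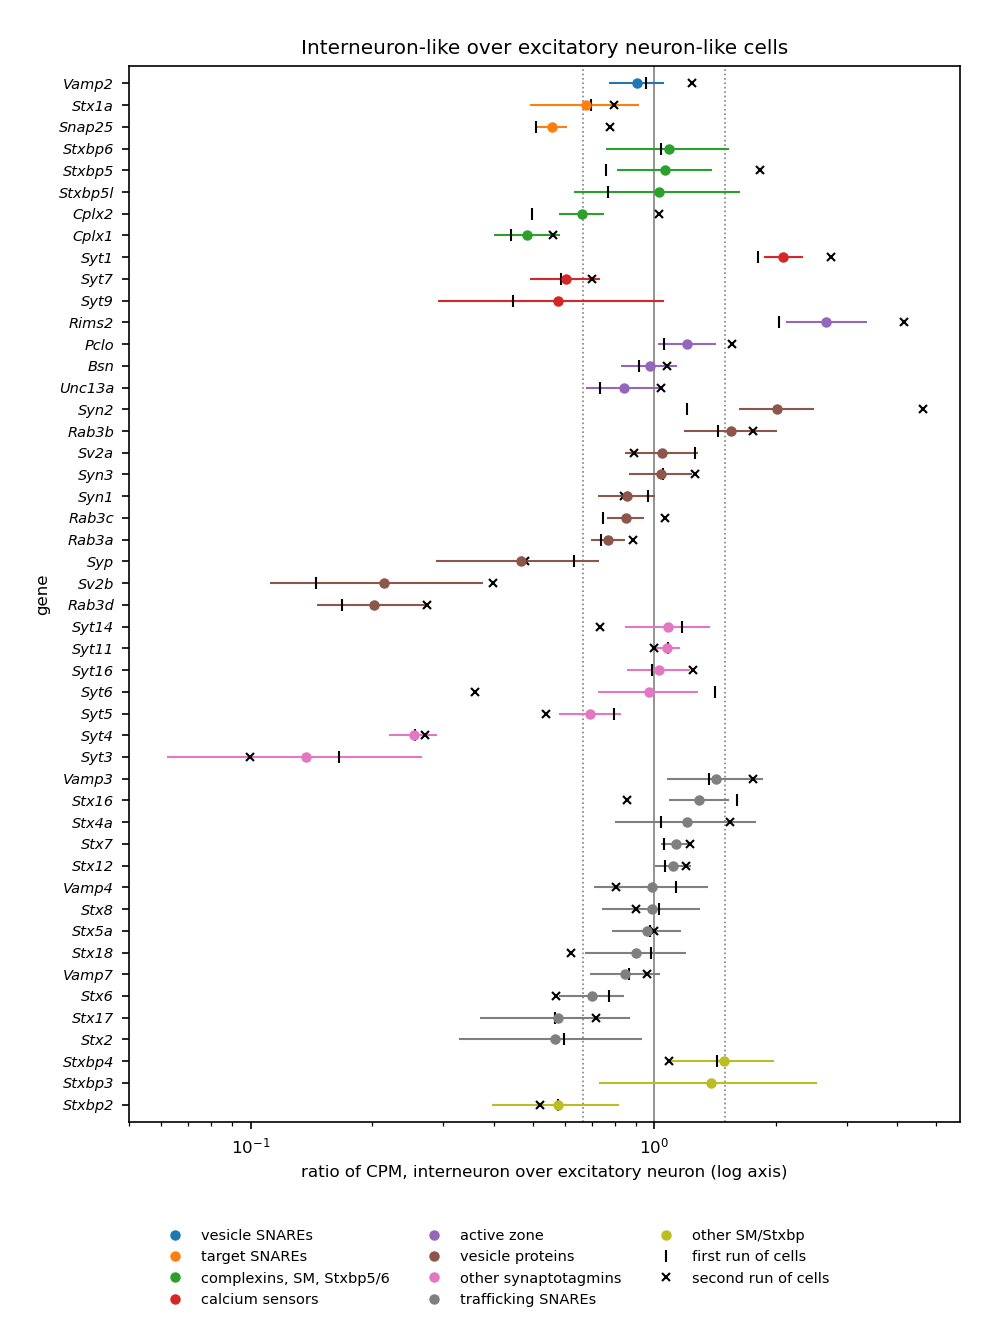
Ratio of CPM in interneurons over excitatory neurons on a log axis for 48 measured genes, coloured by role. Dots are all cells with 95% counting intervals, bars and crosses the 2 runs of cells, and dotted lines mark 1.5-fold. Rims2, Syt1, Syn2 and Rab3b lie right of the 1.5-fold line, and Syt3, Rab3d, Sv2b and Syt4 lie farthest left.

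Pairs of neuron classes were compared further after their levels had been seen. Of the 1005 deep layer neurons, 589 lay in a cluster led by Nr4a3 whose name was weak. Its mean log2 enrichment was 0.595 for the deep layer markers and 0.584 for the general excitatory markers. In upper layer against deep layer neurons, 1 gene was higher and 9 lower of 48 measured, where 4.96% and 12% of all measured genes were. The higher gene was Syt4, with 1349 UMIs and 971 CPM in upper layer neurons and 1277 UMIs and 275 CPM in deep layer neurons, 3.54-fold (3.27 to 3.82). Its ratio was 5.78 in the first run, with 49 upper layer cells, and 3.31 in the second. After thinning, 47.4% of upper layer and 18.8% of deep layer neurons had a Syt4 UMI. The unnamed clusters led by Nts and by Crym had Syt4 at 842 and 776 CPM, so a high level was not limited to the upper layer cluster. Syt6 ran the other way, with 5.04 CPM in upper layer and 41.9 CPM in deep layer neurons, 8.32-fold lower (3.96 to 21.0). Sv2b was 3.79-fold lower, at 9.36 against 35.5 CPM, and Snap25 1.73-fold, at 325 against 564 CPM. Syn2 was 1.51-fold lower in all cells and turned direction between the runs.

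Striatal neurons against interneurons had 5 higher and 8 lower of 38 measured genes, where 7.73% and 11.4% of all measured genes were, and all but 18 of the 263 striatal cells came from the first run. Syt6 had 99 UMIs and 137 CPM in striatal neurons and 67 UMIs and 32.5 CPM in interneurons, 4.23-fold higher (3.07 to 5.85), and striatal neurons held its highest level of any class. Syn2 was 3.74-fold lower, at 19.4 against 72.8 CPM, Syt1 2.48-fold lower, at 104 against 259 CPM, and Vamp2 1.82-fold lower, with 1.31 and 1.49 in the 2 runs. Syt4, 2.45-fold higher over all cells, did not keep its direction in the 18 striatal cells of the second run.

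Cajal-Retzius cells, early-born neurons of the cortical surface, had far lower levels of the complexins than excitatory neurons. Cplx1 had 5 UMIs and 15.4 CPM in Cajal-Retzius cells against 804 UMIs and 133 CPM in excitatory neurons, 8.66-fold lower (3.70 to 26.7). Cplx2 had 39.96 and 219 CPM, 5.47-fold lower (3.19 to 10.3), and Snap25 154 and 509 CPM, 3.31-fold lower. Unc13a was 1.64-fold and Rims2 2.58-fold higher, at 111 against 67.6 CPM and 67.6 against 26.2 CPM. Rab3a had 271 and 323 CPM, within 1.5-fold. Syt6 was 10.9-fold lower over all cells, from 1 UMI in Cajal-Retzius cells (1.93 to 432), and did not keep its direction in the second run. In all, 10 genes were higher and 16 lower of 48 measured, where 21.6% and 17.1% of all measured genes were, and 20 of the 26 kept their direction in both runs.

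A few family members were nearly absent from neurons or rare in all cells. Vamp5, a SNARE of muscle and vessel walls, had 27 of its 28 UMIs in the fibroblast cluster, at 172 CPM. Vamp8 (endobrevin), the SNARE of secretory granules in blood and gland cells, had 440 CPM in microglia, 153 CPM in fibroblasts and 98.2 CPM in choroid plexus cells, against 0.828 CPM in excitatory neurons. Vamp8 had 14.4 CPM in radial glia. Rare in all cells were Syt2, the calcium sensor of hindbrain and spinal synapses, with 10 UMIs, Syt12 with 8 and Stx11 with 7. Neurons held the UMIs of Stx11, with 4 in the interneuron cluster led by Lhx8, 2 in Cajal-Retzius cells and 1 in striatal neurons. These genes were picked after their values were seen.

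Genes of neighbouring machinery that the list does not hold were measured alongside. In excitatory neurons over radial glia, other presynaptic genes (endocytosis, synuclein, liprin and calcium channel genes) gave 26 higher and 6 lower of 38 measured. Dense core vesicle genes gave 8 and 1 of 11, and postsynaptic scaffold genes 8 and 1 of 13. Of all measured genes, 24.1% were higher and 30.4% lower. Sncb (beta-synuclein) was 11.4-fold and Dnm3 (dynamin 3) 11.01-fold higher, Shank1 12.9-fold and Pcsk2 12.7-fold. Syngr2, the synaptogyrin of non-neuronal cells, had 0.497 CPM in excitatory neurons and 26.6 CPM in radial glia, 53.6-fold lower (17.3 to 269, from 3 and 48 UMIs). In interneurons over ganglionic eminence progenitors, Rph3a (rabphilin), an effector of Rab3a, was 20.8-fold higher, at 116 against 5.59 CPM. Radial glial markers summed to 1269 CPM in excitatory neurons and 15618 CPM in radial glia, with all 17 seen in both, and their part in these ratios was not tested.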

How the data were processed

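Single forebrain cells were measured with the SureCell droplet workflow of Illumina and Bio-Rad, per the labels. The authors deposited UMI counts per gene and cell as 1 matrix. The build was mm10, per the submitters' processing notes, while aligner, counter and annotation were not given in the sources used here. No cell was tied to 1 of the 16 samples, so nothing was tested and replicate spread is unknown. Intervals cover counting error only.

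Cells were normalized to 10000 UMIs, and 2000 features, leaving out the members, gave 30 principal components and a graph of 15 neighbours, clustered with leidenalg 0.10.2 (resolution 1) in Python 3.11.15 with scikit-learn 1.9.0 and scipy 1.17.1. Clusters were named from 203 marker genes by the mean log2 enrichment of a list, at least 3 enriched markers and a marker among the leading genes. Doublets were kept, and leaving out the 5% of cells with the highest doublet score was 1 of the alternatives, beside other clusterings, limits, depths and each run of cells. The comparisons of upper with deep layer neurons, striatal neurons with interneurons and Cajal-Retzius cells with excitatory neurons were added after seeing the data. UMIs were summed per class. Ratios of CPM carry exact conditional binomial 95% intervals, levels exact Poisson and shares exact binomial intervals. For a share of 0, the limit is 3 counts. The code was tested on simulated data. Genes named are a core set of 16, and in each role group the extreme ratio in each direction past 1.5-fold whose interval leaves out 1. Results for some members are not reported here by name. Other genes given values were chosen after these were seen. The members and lists were chosen with earlier results of these data known. Gene positions are from GENCODE on GRCm38, upstream sequences from RefSeq.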

Additional observations from a re-analysis of the deposited data

How the results depend on the processing

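No paired analysis was possible because the labels give no groups and cells are not tied to samples. The counts below are of members only, without the number measured or the share of all genes under each alternative. They cannot tell a change in the members from a change in all genes. The count of genes at least 1.5-fold higher in intermediate progenitors than in radial glia was 12. It was 21 at resolution 0.5 or when unnamed clusters took their best class (added after seeing the data), 7 with 1000 features, 5 when clusters and values came from separate parts of the UMIs (a split of the UMIs) or with a 2-fold limit, and 20 at a minimum of 10 UMIs. The count lower, 4, was 2 with the split of the UMIs, 8 at a minimum of 10 UMIs, and 0 with a 2-fold limit or in the first run. For migrating neurons over intermediate progenitors the count lower, 5, was 3 with 15 components or the split and 2 at 2-fold. For excitatory over migrating neurons it was also 5, and 3 at resolution 0.5, with members as features or in the first run, 2 with 15 components and 1 at 2-fold. For interneurons over ganglionic eminence progenitors it was 5, and 3 at resolution 0.5, 2 with 1000 features, and 1 with 15 components, the split or the second run. For interneurons over excitatory neurons the count lower, 13, was 6 at 2-fold, and the count higher, 4, was 8 in the second run. The median share of UMIs in the release set of cells thinned to 1000 UMIs changed without thinning: 0.0475% against 0% in radial glia, 0.0813% against 0.1% in intermediate progenitors, 0.297% against 0.3% in deep layer and 0.287% against 0.3% in excitatory neurons, 0.0518% against 0% in ganglionic eminence progenitors, 0.214% and 0.209% against 0.2% in interneurons and Cajal-Retzius cells, and 0.0400% against 0% in fibroblasts. At 500 UMIs it was 0% in intermediate progenitors and 0.2% in deep layer and excitatory neurons. For the 176 results of genes named by the rule, 2025 values under an alternative were had, of which 1777 stayed within the interval, 242 left it and 6 reversed. Genes outside the rule were not in this tally, where directions also differed between runs for Syt4 in striatal neurons over interneurons, Syn2 in upper over deep layer neurons, and Stx18, Stxbp5 and Sv2b in Cajal-Retzius cells over excitatory neurons. The 6 were, as log2 ratios, Cplx1 at the second cortical step with 1000 features (-0.25), Cplx2 in interneurons over excitatory neurons in the second run (0.036), Stx5a in striatal neurons over interneurons with 15 components (-0.022), and in Cajal-Retzius cells over excitatory neurons in the second run Stxbp4 (-0.41), Syt6 (0.17) and Syt7 (0.19). The causes were not tested. At 18 to 75 cells in the smallest classes, counting error limits every ratio.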
